A study of Mus musculus with 18 samples.

Results

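The comparison described here was between wild-type (WT) and IRF5 knockout (IRF5 KO) bone marrow-derived macrophages (BMDMs) of mice after LPS. Its members were all expressed genes, 15663 of the 50600 in the count table, read in 6 of the 18 RNA-seq libraries of the study: WT R1, R2 and R3 and IRF5 KO R1, R2 and R3. Both groups came from marrow cultured with recombinant GM-CSF over 8 days, received the vehicle DMSO for 1 h and then LPS at 100 ng/ml for 2 h, and differed by label in the Irf5 genotype alone. The other 12 libraries, in 4 groups of 3, held each genotype unstimulated and each genotype given 3.5 μM defactinib, an inhibitor of the kinases FAK and PYK2, in place of DMSO before LPS. The study's methods name purchased male C57BL/6J mice of 8 to 11 weeks. Its reporting summary describes replicates in general as biological, mice or cells, from independent experiments. The source and allele of the IRF5 KO mice, and whether the RNA-seq libraries of a group came from different animals, are not given in the sources used here, so that p-values measure the spread between libraries, which may be technical. The question was which genes of the LPS response depend on IRF5, and each knockout library was read singly, because R3 stood apart from R1 and R2.

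IRF5 is a transcription factor of the interferon regulatory factor family. In macrophages, LPS binds the receptor TLR4, whose adaptors signal through NF-kB, MAP kinases and interferon regulatory factors. IRF5 is activated downstream of the adaptor MyD88 and is known for driving cytokines such as IL-12, IL-6 and TNF, whereas IRF3 induces interferon-beta, which acts back on the cells through STAT2 and IRF9, among others, to raise a large set of antiviral genes. GM-CSF cultures hold cells with features of both macrophages and dendritic cells.

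Irf5 itself (chromosome 6, 29526625 to 29541871, + strand, mm10) was counted at 434, 474 and 443 CPM in WT R1, R2 and R3 and at 435, 431 and 344 CPM in IRF5 KO R1, R2 and R3. CPM is the read count per 1000000 reads of the library, with TMM factors applied to the library size. The 2 groups overlapped, and the difference, KO minus WT as in all that follows, was -0.16 ± 0.16 (SE), adjusted p = 0.429 on the log2 scale. At rest it was -0.75 (adjusted p = 0.00492). A whole-gene count does not reveal a deletion that leaves the transcript in place, and the sources do not say which exons are removed, so the Irf5 count checks nothing here.

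The label of genotype was therefore read from genes chosen without the 6 libraries. Of genes that differed more than 4-fold in the same direction at rest and under LPS with defactinib, the 168 lower in IRF5 KO had medians of 0.36 to 0.45 in WT after LPS on the log2 CPM scale and of -2.51, -2.22 and -2.01 in IRF5 KO R1, R2 and R3. The 86 higher ones stood at -1.28 to -1.16 in WT and at 1.79, 1.72 and 1.83 in IRF5 KO. All 3 knockout libraries thus carried the genotype pattern of the libraries outside the comparison. They did not resemble each other in the rest of the transcriptome. The median absolute difference over the tested genes was 0.095 log2 units between IRF5 KO R1 and R2, against 0.161 to 0.186 among the WT libraries, but 0.558 and 0.554 between R3 and each of them. R1 and R2 were nearest to the IRF5 KO libraries given defactinib, at 0.233 to 0.268, and R3 to the unstimulated IRF5 KO libraries, at 0.237 to 0.267. A chi-square of the counts per gene, where 1 is sampling noise, was 2.33 for R1 with R2 and 441 and 425 for R3 with R1 and R2, so that R1 and R2 were closer than any other pair of replicates, which ranged upwards from 3.82, yet not the same counts. Whether a library was exchanged, or how R3 came to differ, was not tested, and the 3 knockout libraries are therefore shown singly.

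A second panel, of 722 genes raised by LPS with defactinib in both genotypes, had medians of -1.88 to -1.52 (log2 CPM) in WT after LPS, 0.53 and 0.55 in IRF5 KO R1 and R2 and -2.33 in R3, with -2.88 to -2.42 in all unstimulated libraries and 0.03 to 0.38 with defactinib. The reverse panel, of 1575 genes lowered, stood at 2.42 to 2.46 in WT LPS, at 1.17 in both R1 and R2, at 3.05 in R3, at 3.22 to 3.30 at rest and at 1.09 to 1.29 with defactinib. R3 nonetheless responded to LPS: Tnf, the prototype early cytokine, was at 1141 CPM in R3 against 55.9 to 59.4 CPM in unstimulated IRF5 KO, and Il6 at 382 against 0.405 to 0.712 CPM. Library totals of the 6 were 39282181 to 51028045 counted read pairs. Transcripts encoded by the mitochondrial genome took 0.793%, 0.797% and 0.514% of reads in IRF5 KO R1, R2 and R3.

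Macrophage markers were present in both genotypes. The summed level of the 14 markers fixed for macrophages was 12100 to 12800 CPM in WT and 13500 to 15100 CPM in IRF5 KO, with Lyz2, lysozyme, at 8343, 7939 and 8337 CPM in WT and 9646, 9795 and 7703 CPM in IRF5 KO. A gene was called at an adjusted p under 0.05 and a difference of more than 2-fold. Of the 14, 3 were called lower (21.4%, against 14% of all genes) and 2 higher (14.3%, against 11.8%), each in all 3 knockout libraries. Adgre1, which encodes the F4/80 antigen, rose in the knockout, and Mertk, a receptor for dying cells, and the scavenger receptors Mrc1 and Marco fell. The 12 dendritic cell markers summed to 2880 to 3000 CPM in WT and 2180 to 2790 CPM in IRF5 KO, of which Itgax, the CD11c integrin, made up most. The 13 neutrophil markers summed to 363 to 463 CPM in WT and 1250 to 1770 CPM in IRF5 KO, and most of the knockout sum was Mmp8. Of 12 tested 4 were called higher after LPS (33.3%, against 11.8% of all genes) and 4 at rest, against 3.51% of all genes. At either time 0 were lower, against 14% and 3.8% of all genes. The abundant S100a8 and S100a9 were not called, with -0.12 (adjusted p = 0.633) and 0.03 (adjusted p = 0.913). The defining Ly6g was at 0.162, 0.179 and 0.584 CPM in WT and 1.09, 1.09 and 0.9 CPM in IRF5 KO, and Elane at 0.0464, 0.281 and 0.152 and 0.0242, 0.318 and 0.274 CPM. The part of these cells in the other results was not tested. The 13 mast cell and basophil markers summed to 45.5 to 58.1 and 50.1 to 102 CPM, with 2 of 6 tested called higher (33.3%, against 11.8% of all genes), Gata2 in all 3 libraries, and the defining Cpa3 at 0.348, 0.563 and 0.864 CPM in WT and 1.07, 0.53 and 0.372 CPM in IRF5 KO. Hdc, histidine decarboxylase, was at 31.9, 42.5 and 31.9 and 6.64, 6.71 and 28.9 CPM, below WT in every knockout library, with -1.33 (adjusted p = 0.154) and a call only without R3, at -2.41 (adjusted p = 0.0272 in edgeR). The 14 markers of T, B and NK cells summed to 2.03 to 2.67 and 0.88 to 1.41 CPM. In bulk libraries, fewer cells of a type and less RNA per cell cannot be told apart.

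With all 3 libraries per group, 4036 of the tested genes (25.8%) passed both thresholds of a call, an adjusted p under 0.05 in edgeR's quasi-likelihood test and a difference of more than 2-fold. Of these, 2195 were lower in IRF5 KO (14%) and 1841 higher (11.8%). The median over all genes was 0.05. Scaling by library size alone moved that median to 0.30 and the split to 1623 lower and 2637 higher. Without IRF5 KO R3, 5424 genes were called, 3260 lower and 2164 higher. Taken singly against the 3 WT libraries, IRF5 KO R1 gave 5061 called genes (32.3%), R2 5011 (32%) and R3 2680 (17.1%). R1 and R2 had more genes lower than higher, 3083 (19.7%) against 1978 (12.6%) and 3027 (19.3%) against 1984 (12.7%), and R3 had 1295 lower (8.27%) and 1385 higher (8.84%). A lone library has no spread of its own and was assumed to vary like the other groups.

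**Figure D1:**
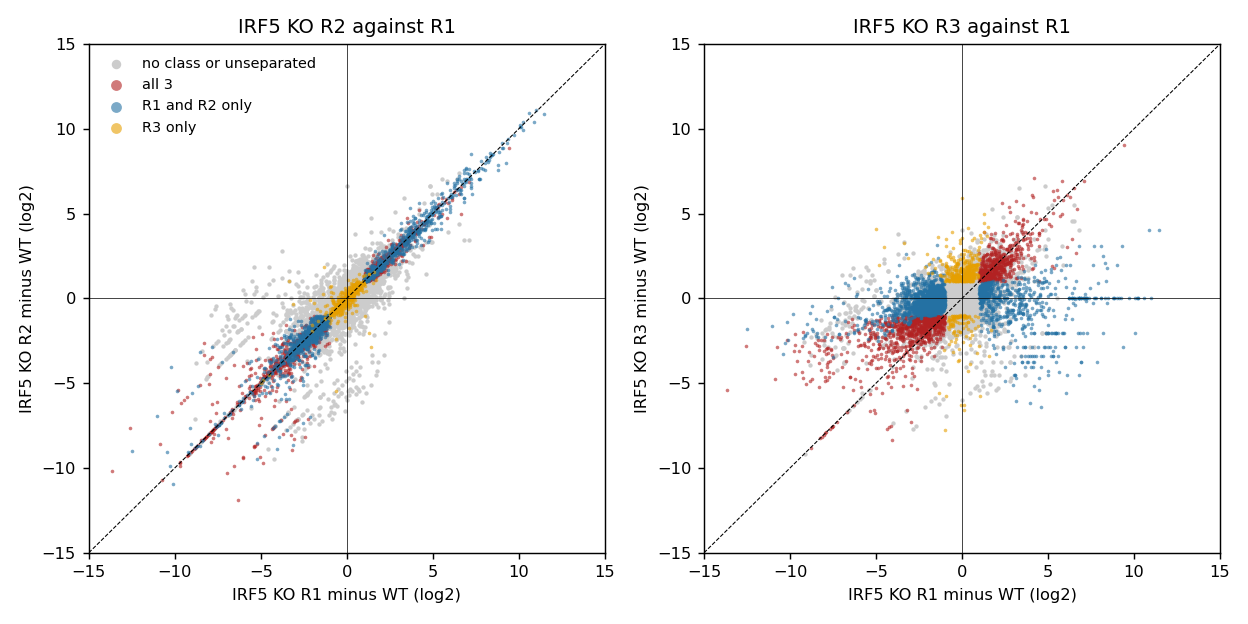
Difference of each tested gene from WT after LPS (log2) in IRF5 KO R2 (left) and R3 (right), each on the vertical axis, against IRF5 KO R1 on the horizontal axis; 1 point is 1 of 15663 genes, and the dashed line marks equal differences. R2 follows R1 along the line, whereas in R3 the 1533 lower and 789 higher genes of R1 and R2 only lie nearer to zero, and the 978 lower and 641 higher genes of all 3 lie off zero in both panels.

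Genes were sorted by these single calls. A gene differed in all 3 libraries if it was called in one direction in each, which held for 978 genes lower (6.24% of those tested) and 641 higher (4.09%). It differed in R1 and R2 only if R3 gave no call in that direction and also differed from R1 and R2 by its own test, which held for 1533 genes lower (9.79%) and 789 higher (5.04%). R3 only, the reverse, held for 103 lower (0.658%) and 402 higher (2.57%). A further 259 lower (1.65%) and 269 higher genes (1.72%) were called in R1 and R2 without a separation from R3, and 101 lower (0.645%) and 149 higher (0.951%) in R3 without a separation from R1 and R2. Other combinations of calls held 570 lower (3.64%) and 561 higher genes (3.58%), and 9308 genes (59.4%) were called in no library. These classes rest on the values themselves and are a description. In the class R1 and R2 only, R3 was within 0.5 log2 units of the WT mean for 820 of the 1533 lower and 407 of the 789 higher genes, and was called in the opposite direction for 45 and 32. It lay below every WT library for 927 of the lower genes (60.5%) and above every one for 310 of the higher genes (39.3%), by more than 2-fold for 68 and 2. All 26 interferon-beta response genes of this class, described below, are among those 68.

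The classes were then read in the resting and defactinib libraries. Their levels were not compared to form the classes, but their spread entered the tests behind the calls. The shares that follow are therefore a description. Of the 978 genes lower in all 3 knockout libraries, 291 (29.8%) were also called lower in unstimulated IRF5 KO, where 595 of all tested genes (3.80%) were, and 343 (35.1%) under LPS with defactinib, where 1323 (8.45%) were. Of the 641 higher genes, 255 (39.8%) were also higher at rest, against 550 of all genes (3.51%), and 220 (34.3%) with defactinib, against 1389 (8.87%). These genes therefore held 48.9% of the lower and 46.4% of the higher genotype calls at rest. Of the genes that differed in R1 and R2 only, 30 of 1533 (1.96%) were lower and 9 of 789 (1.14%) higher at rest, where 3.8% and 3.51% of all genes were. With defactinib 134 (8.74%) and 92 (11.7%) were, against 8.45% and 8.87% of all genes, and 187 (12.2%) of the lower and 60 (7.6%) of the higher class were called in the opposite direction. Protein-coding genes made up 93.0% of the R1 and R2 only lower class and 59.6% of the higher one.

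**Figure D2:**
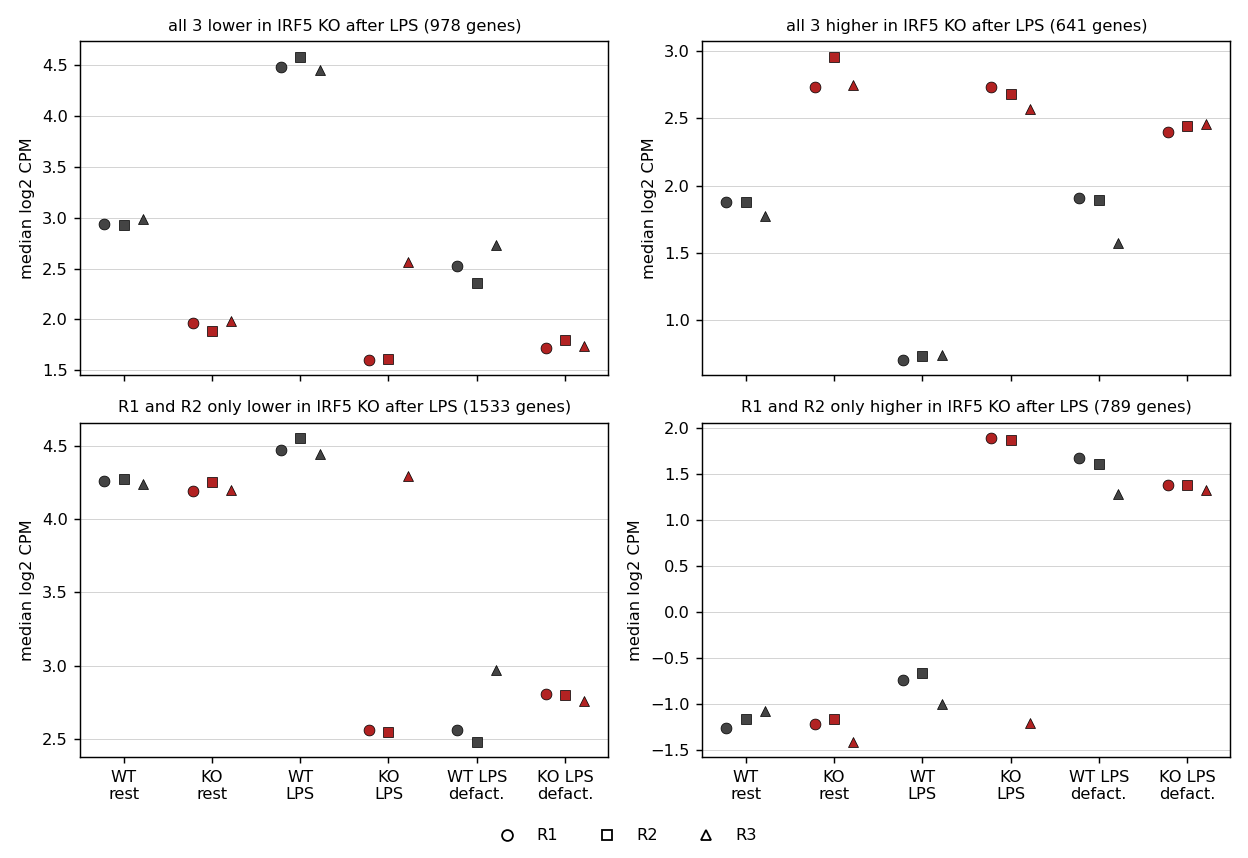
Median log2 CPM of the genes of each class (vertical axis) in all 18 libraries, by group; grey is WT, red is IRF5 KO, and the symbol gives the replicate. Genes lower or higher in all 3 knockout libraries (upper panels) are also apart between the genotypes at rest, while the genes of R1 and R2 only (lower panels) lie in R3 near WT and near the resting libraries, and in R1 and R2 near the libraries given defactinib.

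In level, genes lower in R1 and R2 only had medians of 4.44 to 4.55 (log2 CPM) in WT after LPS, 2.56 and 2.55 in IRF5 KO R1 and R2, 4.29 in R3 and 2.76 to 2.81 in IRF5 KO with defactinib. The higher ones stood at -1.0 to -0.66 in WT, 1.89 and 1.87 in R1 and R2, -1.20 in R3 and 1.33 to 1.38 in IRF5 KO with defactinib. The median of the genes lower in all 3 was 4.45 to 4.58 in WT, 1.6 and 1.61 in R1 and R2 and 2.56 in R3. There R3 lay between the others, nearer to R1 and R2 than to WT.

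Among the genes with a large difference in all 3 knockout libraries were several that differed without LPS as well. F13a1, the A subunit of coagulation factor XIII, was at 68.1, 88.8 and 102 CPM in WT and 2.13, 2.38 and 0.861 CPM in IRF5 KO. The groups were far apart, and R3 was the lowest of the 6. The difference was -5.61 ± 0.57 (SE), adjusted p = 2.59e-06, and it was -6.22 (adjusted p = 3.64e-06) at rest and -6.30 (adjusted p = 1.01e-06) with defactinib. Asb2, a subunit of an E3 ubiquitin ligase, was at 1.34, 1.82 and 1.25 CPM in WT and 81, 83.8 and 180.1 CPM in IRF5 KO, a difference of 6.29 ± 0.43 (SE), adjusted p = 6.85e-08. R3 was the highest of the 6, and at rest the difference was 4.32 (adjusted p = 1.62e-06). Cyp1b1, a cytochrome P450, was at 3.45, 1.33 and 2.31 CPM in WT and 41.7, 39.7 and 148 CPM in IRF5 KO, with 5.01 (adjusted p = 8.17e-06) after LPS and 6.54 (adjusted p = 4.07e-06) at rest.

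Ifitm1, a membrane protein of the interferon-inducible transmembrane family, went against the interferon genes described below. It was at 44.5, 67.9 and 47.7 CPM in WT and 752, 776 and 454 CPM in IRF5 KO, with 3.63 (adjusted p = 5.23e-06) after LPS, 3.76 (adjusted p = 1.25e-05) at rest and 3.67 (adjusted p = 4.73e-06) with defactinib. Mmp8, the neutrophil collagenase, was at 239.5, 180.1 and 182 CPM in WT and 1549, 1568 and 991 CPM in IRF5 KO and rose by 2.77 (adjusted p = 8.14e-07). Gata2, a transcription factor of blood progenitors and mast cells, rose from 3.73, 4.32 and 3.18 CPM to 25.9, 27 and 51.5 CPM, by 3.22 (adjusted p = 4.19e-07). At rest the difference was 2.87 (adjusted p = 1.47e-06) for Mmp8 and 3.30 (adjusted p = 7.27e-07) for Gata2. In all 6 genes of this kind the WT and IRF5 KO libraries did not overlap in any of the 3 conditions. Such a gap was common after LPS, with IRF5 KO lower in 27.3% of all genes and higher in 23.6%.

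Irf2bp2 differed in all 3 libraries after LPS without a call at rest. Irf2bp2, a corepressor that binds IRF2, was at 4.94, 3.48 and 4.32 CPM in WT and 38.9, 36.6 and 58.7 CPM in IRF5 KO, with 3.40 ± 0.18 (SE), adjusted p = 7.64e-09 after LPS and 0.42 (adjusted p = 0.109) at rest. Adgre1 was at 83, 99.7 and 100.4 CPM in WT and 660.0, 671 and 364 CPM in IRF5 KO and rose by 2.58 (adjusted p = 7.18e-06). Mertk fell from 146, 182 and 124 to 25.8, 25.7 and 42.4 CPM, with -2.26 (adjusted p = 1.18e-06).

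**Figure D3:**
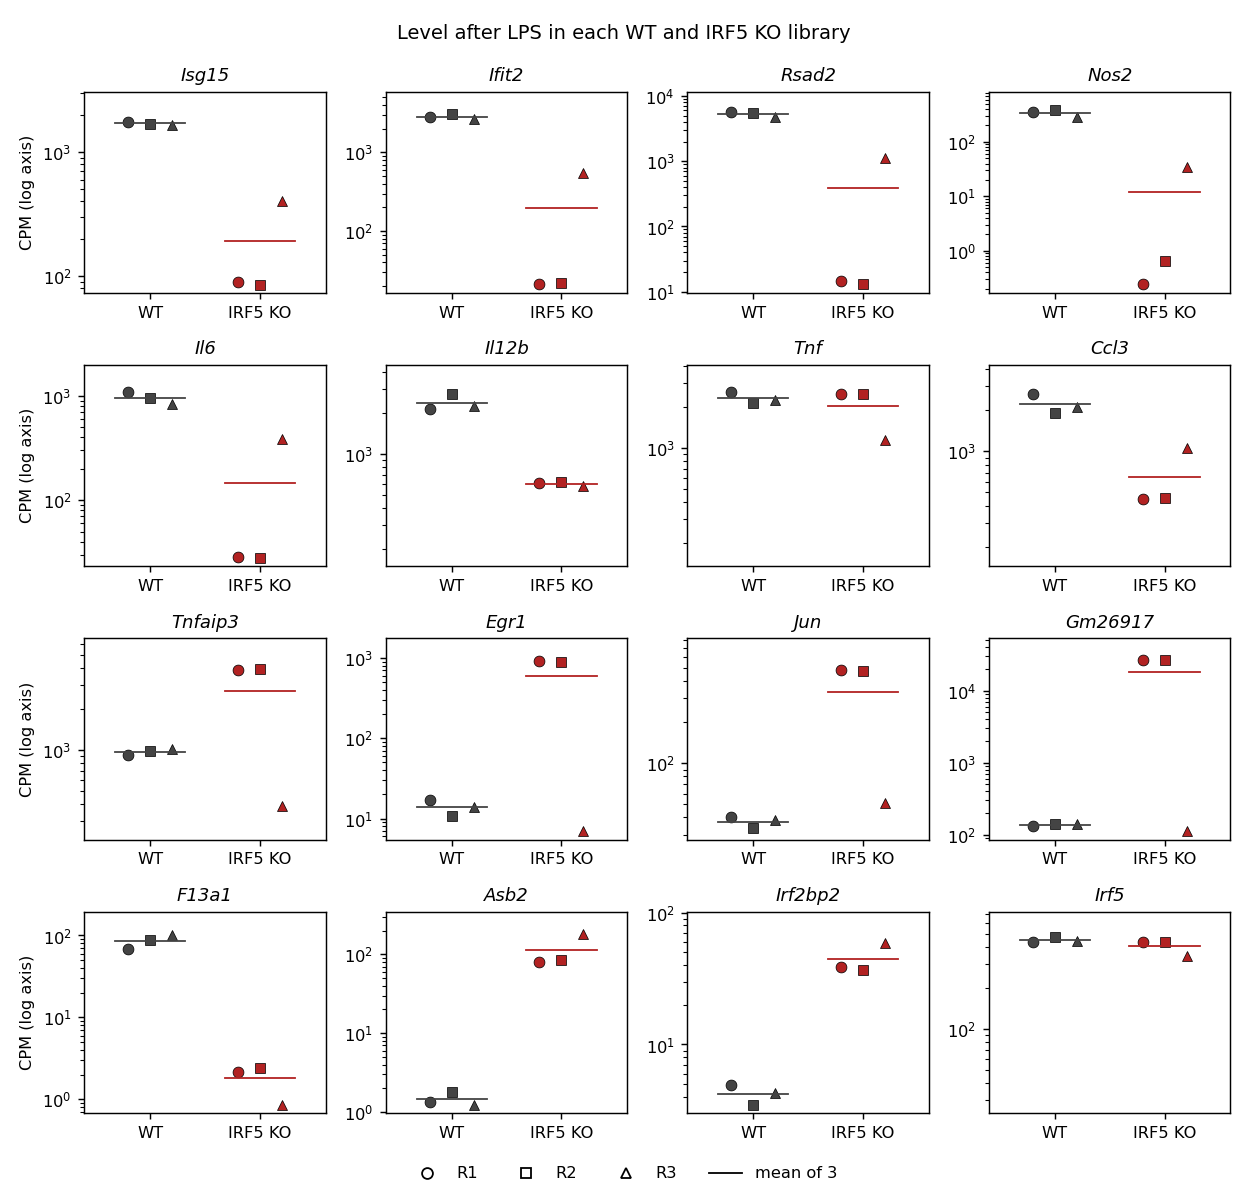
Level of 16 genes after LPS in each library, as CPM on log axes whose range differs between panels; grey symbols are WT, red are IRF5 KO, the symbol gives the replicate and the bar the mean of 3. Isg15 to Il12b lie below WT in all 3 knockout libraries, Egr1, Jun and Gm26917 are far above WT in R1 and R2 alone, and Tnf is low in R3 alone.

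Interferon-beta response genes were the group with the widest fall. Of 66 listed genes 64 were tested, and 58 were called lower in IRF5 KO and 0 higher, with a median of -3.13. Over all genes, 14% were called lower. In the fit of the 6 libraries alone, added after the data were seen, 34 were called lower, where 1515 of all 15663 genes were. Without IRF5 KO R1 or R2 the count was 48, where 1783 and 1802 of all genes were. Without R3 it was 59, where 3260 of all genes were. By library, the median was -4.57 in R1, -4.66 in R2 and -1.87 in R3. Single calls put 15 of the genes (23.4%, against 6.24% of all genes) in the class all 3 and 26 (40.6%, against 9.79%) in R1 and R2 only, where a lone library takes its spread from the other groups. In one of those, WT with defactinib, the summed level of the list ran from 1570 to 8700 CPM, and its part in the split was not tested. Levels were also read without a test, a count added after the data were seen. In all 3 knockout libraries, 57 of the 64 (89.1%) lay below every WT library and more than 2-fold below the WT mean. Of all genes, 8.45% did. In R3, counted by itself, 58 did (90.6%, against 11.9%). In 60 of the 64 (93.8%), R3 lay below WT and above the other knockout libraries, as in 18.8% of all genes. At rest 0 of the 64 were called in either direction, where 7.31% of all genes were, and the median was -0.31. With defactinib 22 were lower (34.4%, against 8.45% of all genes), with a summed level of 1640 to 1700 CPM in IRF5 KO.

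Ifit2, which encodes an RNA-binding antiviral protein, was at 2792, 3067 and 2671 CPM in WT and 21.1, 22 and 539.6 CPM in IRF5 KO. R1 and R2 lay above the 10.2 to 11.3 CPM of unstimulated IRF5 KO and below the 23.9 to 26.4 CPM of unstimulated WT, and R3 was well above them and well below WT after LPS. The difference was -3.87 ± 0.96 (SE), adjusted p = 0.00395. Isg15, a ubiquitin-like modifier, was at 1767, 1704 and 1662 CPM in WT and 89.3, 84.8 and 404 CPM in IRF5 KO, with -3.15 ± 0.54 (SE), adjusted p = 0.00025. The same order held for Rsad2, the radical SAM enzyme viperin, at 5711, 5549 and 4731 CPM in WT and 14.6, 13 and 1134 CPM in IRF5 KO, with -3.78 ± 1.31 (SE), adjusted p = 0.0251. R3 of Rsad2 was well below every WT library although its single call missed the threshold, and R3 differed from R1 and R2 by 6.36 (adjusted p = 0.000439). The call of Rsad2 was lost without IRF5 KO R1 or R2, with an adjusted p of up to 0.0559.

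Cmpk2, a mitochondrial nucleotide kinase next to Rsad2, was at 1898, 1961 and 1449 CPM in WT and 2.93, 3.26 and 351 CPM in IRF5 KO. Ifit1bl1 was at 323, 397 and 271 and 0.267, 0.344 and 51.9 CPM, and Irgm2, an immunity-related GTPase, at 192, 212 and 174 and 0.363, 0.504 and 67.2 CPM. In all of them R1 and R2 were lower than R3, and R3 lower than WT. Their differences were -3.89 (adjusted p = 0.0221), -4.23 (adjusted p = 0.0153) and -3.08 (adjusted p = 0.0481). That of Irgm2 lost its call without any 1 of the 6 libraries other than IRF5 KO R3. Trim30c, of the TRIM30 family, and Il27, a subunit of interleukin-27, fell, with -4.44 (adjusted p = 0.000854) and -4.28 (adjusted p = 0.00505), and were called in all 3 libraries. Trim30c was at 107.7, 133.1 and 104.1 CPM in WT and 0.582, 0.61 and 14.4 CPM in IRF5 KO. Il27 was at 103, 129 and 81.9 CPM in WT and 0.121, 0.106 and 15.6 CPM in IRF5 KO. The guanylate-binding protein Gbp2 was at 1113, 1053 and 861 CPM in WT and 392, 402 and 428 CPM in IRF5 KO, with -1.31 (adjusted p = 0.00934), and the difference of R3 from R1 and R2 was 0.11 (adjusted p = 0.901).

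**Figure D4:**
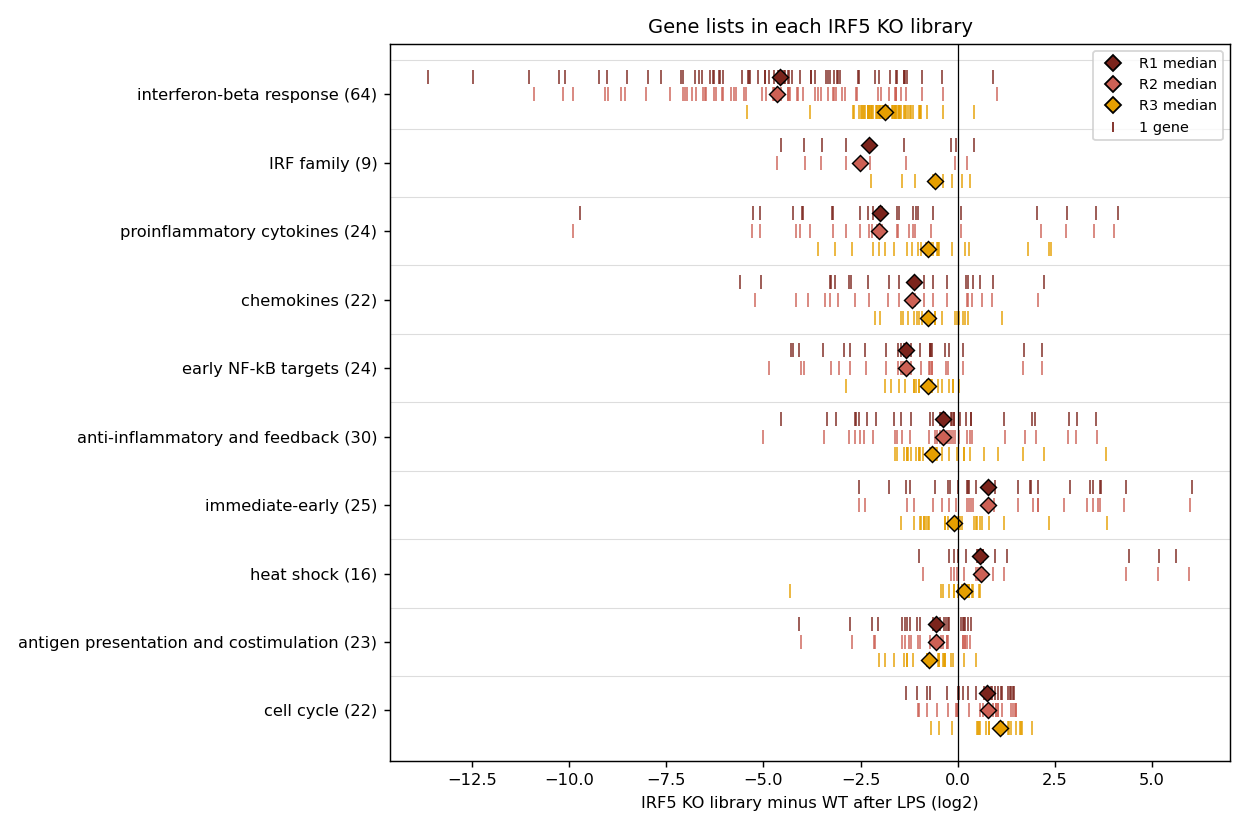
Difference from WT after LPS (log2, horizontal axis) of the tested genes of 10 lists, with the number tested in brackets, in IRF5 KO R1, R2 and R3; ticks are genes and diamonds medians. The interferon-beta response genes have medians of -4.57, -4.66 and -1.87, all below zero, whereas the immediate-early and heat shock genes extend further to the right in R1 and R2 than in R3.

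The promoters of these genes are shown for the element that the interferon-activated complex that holds STAT2 and IRF9, and interferon regulatory factors themselves, are known to bind. Its core was searched as GAAA, any 2 bases and GAAA again, on both strands of RefSeq promoters (GRCm38.p6, 250 bases before to 50 after the start), of which 10662 matched a tested gene. It was in 29 of 49 promoters of interferon-beta response genes (59.2%), against 362 of all 10662 (3.40%), 42 of 690 of the class lower in all 3 (6.09%) and 60 of 1173 of the class lower in R1 and R2 only (5.12%). In the classes higher in all 3 and in R1 and R2 only it was in 1.94% and 2.01%. Below are the 150 bases before the start, 5′ to 3′ along the gene, with the core in capitals, for genes lower in all 3 by call (Isg15, Gbp7) and for genes lower in R1 and R2 only by call (Ifit1, Rsad2, Irgm2). The element is present on both sides of that split.
Isg15, chr4:156200819-156200968, - strand: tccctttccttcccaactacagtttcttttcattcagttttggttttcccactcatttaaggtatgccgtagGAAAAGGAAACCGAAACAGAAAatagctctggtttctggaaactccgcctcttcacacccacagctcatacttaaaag
Gbp7, chr3:142530186-142530335, + strand: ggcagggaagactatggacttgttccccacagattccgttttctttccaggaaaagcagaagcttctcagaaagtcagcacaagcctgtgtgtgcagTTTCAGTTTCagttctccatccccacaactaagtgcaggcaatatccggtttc
Ifit1, chr19:34640739-34640888, + strand: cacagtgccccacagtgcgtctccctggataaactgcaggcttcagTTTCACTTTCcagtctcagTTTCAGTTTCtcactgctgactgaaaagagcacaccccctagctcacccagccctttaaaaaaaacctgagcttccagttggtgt
Rsad2, chr12:26456453-26456602, - strand: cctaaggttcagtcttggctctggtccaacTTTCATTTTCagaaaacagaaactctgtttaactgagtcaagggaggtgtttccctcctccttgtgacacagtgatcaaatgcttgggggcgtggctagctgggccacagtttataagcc
Irgm2, chr11:58214827-58214976, + strand: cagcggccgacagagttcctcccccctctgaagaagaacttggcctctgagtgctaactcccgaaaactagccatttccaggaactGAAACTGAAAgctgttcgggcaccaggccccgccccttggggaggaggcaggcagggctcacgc

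Isg15 holds overlapping cores and Ifit1 a pair of separate ones. Gbp7 was at 259, 307 and 242 CPM in WT and 45.3, 44.8 and 111 CPM in IRF5 KO, and Ifit1 at 2813, 2904 and 2681 CPM in WT and 11.1, 10.8 and 574 CPM in IRF5 KO, so that the levels in R3 were below WT in both. Among 17 promoters of proinflammatory cytokines the core was in 0, which says only that these letters are not in the window. The NF-kB letters, GGG, any 2 bases and TTTCC, were in 3 of them (17.6%), against 1.75% of all promoters, Il6 among them. The AP-1 letters TGANTCA were in 7.04% of the class higher in R1 and R2 only and 7.68% of that lower in all 3, against 5.20% of all. The CRE letters TGACGTCA were in 2.51% and 1.16%, against 3.13%. The CArG box, the binding element of serum response factor, was in 1.51% and 1.59%, against 1.27% of all promoters. Each set of letters was searched on both strands, matches of different motifs may overlap, and a match is a description of the sequence and not a binding site.

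The interferon regulatory factor family followed the interferon genes in direction. Of 9 tested members 6 were lower and 0 higher, where 14% of all genes were lower and 11.8% higher, with medians of -2.28, -2.51 and -0.57 in R1, R2 and R3. Irf1, an early target of interferon and NF-kB, was the member in the class all 3 by single calls, at 543, 622 and 569.8 CPM in WT and 51.4, 50.5 and 213 CPM in IRF5 KO, a difference of -2.46 (adjusted p = 0.00016). Irf7, the amplifier of interferon production, was at 240.3, 268 and 174 and 9.76, 8.98 and 48.3 CPM, with -3.34 (adjusted p = 0.0277). Irf8, a factor of the macrophage and dendritic lineages, was at 586, 660.5 and 518 CPM in WT and 79.7, 79.8 and 379 CPM in IRF5 KO, with -1.71 (adjusted p = 0.0383), and Irf4, its close relative, at 480.0, 410.4 and 456 and 92.2, 93.2 and 402 CPM, with -1.20 (adjusted p = 0.0273). In R3, Irf4 was just below the WT libraries. The calls of Irf8 and Irf4 were lost without IRF5 KO R1 or R2, with adjusted p up to 0.141 and 0.107, that of Irf8 also without any 1 WT library and that of Irf4 without WT R1 or R3. Irf9 fell from 165, 185 and 160.0 to 11, 11.2 and 78.5 CPM, with -2.34 (adjusted p = 0.00582), and Stat2, its partner, from 508, 631 and 415 to 63.8, 65.8 and 196 CPM, with -2.25 (adjusted p = 0.000992).

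Ifnb1, the interferon itself, was at 81.9, 54.5 and 69.1 CPM in WT and 32.8, 32.1 and 18.6 CPM in IRF5 KO, a difference of -1.30 ± 0.42 (SE), adjusted p = 0.0175. The knockout libraries were below WT, with R3 the lowest.

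Proinflammatory cytokines were lower in 16 of 24 tested genes (66.7%, against 14% of all genes) and higher in 4 (16.7%, against 11.8%), with medians of -1.99, -2.01 and -0.75 in R1, R2 and R3. By single calls 6 were lower in all 3, 8 in R1 and R2 only and 1 in R3 only, where 6.24%, 9.79% and 0.658% of all genes were. By the same calls 3 were higher in all 3 and 1 in R1 and R2 only, against 4.09% and 5.04%. At rest 1 was lower and 2 higher, against 3.8% and 3.51%. The sum over the list was 15430 to 17600 CPM in WT and 5314, 5315 and 7169 CPM in IRF5 KO.

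Il12b, the p40 subunit of interleukin-12 and interleukin-23, was at a like level in all 3 knockout libraries. It was at 2137, 2759 and 2227 CPM in WT and 610.0, 616 and 577 CPM in IRF5 KO. The difference was -1.98 ± 0.35 (SE), adjusted p = 0.000307, and R3 minus R1 and R2 was -0.09 (adjusted p = 0.913). At rest it was at 2.5 to 4.35 CPM in WT and 5.02 to 6.27 CPM in IRF5 KO, 0.79 (adjusted p = 0.177). With defactinib the direction was the other, at 15.8 to 64.9 CPM in WT and 1017 to 1079 CPM in IRF5 KO, 4.86 (adjusted p = 2.4e-07). The 3 knockout libraries with DMSO thus lay below the knockout libraries with defactinib.

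Il6, the pyrogenic cytokine interleukin-6, was at 1095, 950.0 and 833 CPM in WT and 28.2, 27.9 and 382 CPM in IRF5 KO. R3 was below every WT library and far above R1 and R2. The difference was -2.71 ± 0.91 (SE), adjusted p = 0.0215, its call was lost without IRF5 KO R1 or R2, with an adjusted p of up to 0.0695, and R3 differed from R1 and R2 by 3.76 (adjusted p = 0.00301). Its promoter stretch, given because the letters of an NF-kB element (in capitals) lie in it, was as follows.
Il6, chr5:30012964-30013113, + strand: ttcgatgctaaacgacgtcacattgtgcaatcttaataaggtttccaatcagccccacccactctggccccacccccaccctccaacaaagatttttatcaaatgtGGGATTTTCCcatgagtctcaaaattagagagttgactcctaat

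Il12a, the partner of Il12b in interleukin-12, was low throughout, at 10.1, 8.54 and 5.69 CPM in WT and 0.509, 0.583 and 2.6 CPM in IRF5 KO, with -2.69 ± 0.96 (SE), adjusted p = 0.0286. That call was lost without any 1 of WT R1, WT R2, IRF5 KO R1 and IRF5 KO R2, with adjusted p up to 0.0945. Il23a, the partner in interleukin-23, was at 40.9, 28.8 and 25.7 CPM in WT and 14.2, 14.4 and 38.8 CPM in IRF5 KO. R3 was within the WT range and R1 and R2 below it, and with 3 libraries per group the difference was -0.50 (adjusted p = 0.296), with a call only when R3 was left out (log2 difference -1.15, adjusted p = 0.00448).

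Tnf ran against this pattern. It was at 2610, 2143 and 2264 CPM in WT and 2490, 2494 and 1141 CPM in IRF5 KO. R3 was below the WT range and R1 and R2 were within it, and the difference over 3 libraries was -0.20 ± 0.24 (SE), adjusted p = 0.51. R3 differed from R1 and R2 by -1.13 (adjusted p = 0.00122). At rest Tnf was at 94.1 to 133 CPM in WT and 55.9 to 59.4 CPM in IRF5 KO, -0.89 (adjusted p = 0.0203).

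Il1a and Il1b, the interleukin-1 pair, were lower in each knockout library than in each WT library. Il1b was at 3712, 2890 and 3063 CPM in WT and 563, 568 and 1824 CPM in IRF5 KO, with -1.71 ± 0.67 (SE), adjusted p = 0.0437. Il1a was at 3296, 2305 and 2618 and 956, 953 and 1762 CPM, with -1.16 ± 0.46 (SE), adjusted p = 0.0453. Both calls were lost without any 1 library other than IRF5 KO R3, with adjusted p up to 0.149 and 0.14, and neither was called in a single library. Their antagonist Il1rn fell, from 2449, 2099 and 2340 to 744, 748 and 1089 CPM, with -1.42 ± 0.15 (SE), adjusted p = 3.42e-06, in all 3 libraries. Il10, the anti-inflammatory cytokine, was below 0.5 CPM in all 6 libraries and gave -0.97 (adjusted p = 0.224), with a call only when R3 was left out, at -2.03 (adjusted p = 0.0199 in edgeR).

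The cytokines that rose were Lif, Csf2 and Ltb in all 3 libraries and Tnfsf9 in R1 and R2 only. Lif, of the interleukin-6 family, was at 7.26, 5.22 and 5.67 CPM in WT and 71.3, 69.6 and 31.9 CPM in IRF5 KO, with 3.25 (adjusted p = 5.74e-06). Csf2, which encodes GM-CSF, was at 0.58, 0.256 and 0.229 and 6.37, 5.88 and 1.25 CPM, with 3.64 (adjusted p = 0.000242). Ltb, lymphotoxin-beta, was at 3.34, 3.73 and 3.48 and 14.6, 15.6 and 17.7 CPM, with 2.18 (adjusted p = 2.66e-05), and was also apart at rest, at 3.15 to 3.67 CPM in WT and 11.1 to 16.2 CPM in IRF5 KO.

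Of 22 tested chemokines 10 were lower (45.5%, against 14% of all genes) and 1 higher (4.55%, against 11.8%), with medians of -1.13, -1.18 and -0.77 in R1, R2 and R3, and by single calls 6 were lower in all 3, 3 in R1 and R2 only and 0 in R3 only, against 6.24%, 9.79% and 0.658% of all genes. Ccl3, the macrophage inflammatory protein 1-alpha, was at 2627, 1904 and 2105 CPM in WT and 448, 452 and 1062 CPM in IRF5 KO, and Ccl4, its beta counterpart, at 1903, 1282 and 1591 and 465, 457 and 723 CPM. Both were below WT in every knockout library, with -1.76 ± 0.26 (SE), adjusted p = 6.56e-05 for Ccl3 and -1.54 ± 0.23 (SE), adjusted p = 5.85e-05 for Ccl4. At rest Ccl3 was lower by the same amount, -1.76 (adjusted p = 0.000231), as was Ccl4, -1.57 (adjusted p = 0.000171). With defactinib Ccl3 was higher in IRF5 KO, 1.68 (adjusted p = 0.000123), and Ccl4 missed the fold threshold, 0.97 (adjusted p = 0.00301).

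Cxcl10, an interferon-inducible ligand of CXCR3, was at 1818, 1643 and 1362 CPM in WT and 180.1, 188 and 576 CPM in IRF5 KO, a difference of -2.35 ± 0.37 (SE), adjusted p = 0.000117, and Cxcl9 and Cxcl11, which share its receptor, were lower in all 3 as well. Ccl5, or RANTES, was at 1571, 1528 and 1234 and 151, 148 and 360.4 CPM, with -2.72 ± 0.65 (SE), adjusted p = 0.00299. The neutrophil attractants did not follow. Cxcl1 was at 152, 132 and 139 CPM in WT and 169.6, 170.2 and 134 CPM in IRF5 KO, with 0.16 (adjusted p = 0.5), and Cxcl2 at 1527, 1049 and 1244 and 2374, 2333 and 955 CPM, with 0.57 (adjusted p = 0.12). Ccl22 and Ccl17, ligands of CCR4, were at 14080, 12780 and 12320 and 5432, 5013 and 5339 CPM in WT and 6063, 6071 and 6801 and 3374, 3389 and 3052 CPM in IRF5 KO. Ccl22 was called, with -1.05 (adjusted p = 5.75e-06), though not without WT R1, where its difference was -0.98, and Ccl17 missed the fold threshold with -0.69 (adjusted p = 0.000942).

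Early NF-kB targets were split by library. Of 24 tested genes 12 were lower (50%, against 14% of all genes) and 2 higher (8.33%, against 11.8%) with 3 libraries per group. By single calls 12 were lower in R1 and R2 only, 2 in all 3 and 2 in R3 only. The shares of all genes in these classes were 9.79%, 6.24% and 0.658%. Cd40, the costimulatory receptor, was at 652, 880.2 and 682 CPM in WT and 43.5, 45.1 and 199.5 CPM in IRF5 KO and fell, with -2.94 (adjusted p = 0.000778). Icam1, an adhesion molecule, was at 1287, 1552 and 1462 CPM in WT and 738, 743 and 670.5 CPM in IRF5 KO, a difference of -1.0 (adjusted p = 0.000136) just short of the fold threshold, which it passed without WT R1 or without IRF5 KO R1 or R2. Ptgs2, the inducible cyclooxygenase, was at 752, 683 and 557 CPM in WT and 411, 422 and 498 CPM in IRF5 KO, with -0.58 (adjusted p = 0.309). Cflar, an inhibitor of death receptor signalling, and Malt1, a paracaspase, were lowest in R3, at 808, 809.8 and 464 and 841, 834 and 513 CPM against 1296, 1315 and 1379 and 1231, 1296 and 1427 CPM in WT.

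Among 30 feedback and anti-inflammatory genes 8 were lower (26.7%, against 14% of all genes) and 6 higher (20%, against 11.8%). By single calls 4 were lower in all 3, 6 in R1 and R2 only and 4 in R3 only, against 6.24%, 9.79% and 0.658% of all genes, and 3 were higher in all 3 and 2 in R1 and R2 only, against 4.09% and 5.04%. Tnfaip3, the ubiquitin-editing enzyme A20 that restrains NF-kB, was at 924, 981 and 1014 CPM in WT and 3879, 3926 and 391 CPM in IRF5 KO. The levels of R1 and R2 were above and that of R3 below WT, and R3 differed from them by -3.32 (adjusted p = 1.43e-08). The 3-library difference was 1.49 (adjusted p = 0.0237), and its call was lost without any 1 library other than IRF5 KO R3. Nfkbia, the inhibitor IkB-alpha, was at 895, 868 and 839 CPM in WT and 904, 891 and 373 CPM in IRF5 KO, and Socs3, a brake on cytokine receptors, at 599, 576 and 544 and 732, 741 and 219 CPM. Both were low in R3 alone, and Dusp1, a phosphatase of MAP kinases, was too, at 68.4, 48.1 and 63.5 CPM in WT and 70.2, 70.4 and 19.4 CPM in IRF5 KO. In IRF5 KO with defactinib, Tnfaip3 was at 3496 to 3515, Nfkbia at 1037 to 1144 and Dusp1 at 73.4 to 83.5 CPM, near the levels of R1 and R2.

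The immediate-early genes, which serum, growth factors and stress raise within minutes, were split between the knockout libraries. Of 25 tested 10 were higher (40%, against 11.8% of all genes) and 2 lower (8%, against 14%), with medians of 0.79, 0.78 and -0.08 in R1, R2 and R3. By single calls 8 were higher in R1 and R2 only (32%, against 5.04% of all genes). A further 3 were higher in all 3 and 0 in R3 only, against 4.09% and 2.57%. Egr1, a zinc finger factor, was at 16.9, 10.7 and 14.2 CPM in WT and 915, 885 and 6.98 CPM in IRF5 KO. R1 and R2 were far above and R3 below every WT library, with 5.44 ± 1.02 (SE), adjusted p = 0.000525 over 3 libraries and -7.01 (adjusted p = 1.67e-09) between R3 and the others. Jun, the AP-1 subunit, was at 40.3, 33.3 and 38.1 CPM in WT and 481, 477 and 51 CPM in IRF5 KO, and Fos, its partner, at 5.1, 4.17 and 5.92 and 64.3, 61.6 and 4.01 CPM. In R3 Jun was just above and Fos just below the WT libraries, and the 3-library differences were 3.17 (adjusted p = 0.000291) and 3.09 (adjusted p = 0.00112). At rest 0 of the 25 were higher in IRF5 KO and 2 were lower, against 3.51% and 3.8% of all genes. With defactinib, Egr1 was at 385 to 538 CPM in WT and 747 to 896 CPM in IRF5 KO, and Jun at 118 to 255 and 482 to 534 CPM, so that R1 and R2 were near the knockout libraries given the drug.

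The list was not uniform in direction. Nr4a3, an orphan nuclear receptor, was lower, at 1362, 1465 and 1459 CPM in WT and 245, 247 and 845 CPM in IRF5 KO, with -1.68 (adjusted p = 0.00126). Egr3, Fosl1 and Jund were likewise lower in R1 and R2 only. Egr2, Klf2 and Myc were higher in all 3. Phlda1, which is not on the list, was at 51.8, 32.5 and 42.8 CPM in WT and 743, 722 and 50.4 CPM in IRF5 KO, with R1 and R2 above the WT libraries and R3 within their range.

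Of 16 heat shock genes 4 were higher (25%, against 11.8% of all genes), Hspa1a, Hspa1b, Hsph1 and Hspb1, and 0 lower. All 4 were higher in R1 and R2 only by single calls, as were 5.04% of all genes. Hspa1b, an inducible chaperone, was at 4.36, 3.73 and 3.99 CPM in WT and 85.6, 81.1 and 4.28 CPM in IRF5 KO. R3 was within the WT range, and the difference was 3.82 (adjusted p = 0.000371). Its near-identical copy Hspa1a, with which reads may be shared, was at 2.2, 1.97 and 2.01 and 75.3, 73.7 and 2.44 CPM. The constitutive Hspa8 and Hsp90ab1 were not called, with 0.48 (adjusted p = 0.000911) and 0.40 (adjusted p = 0.0189).

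A single transcript took a large share of the reads of R1 and R2. Gm26917 is a noncoding RNA annotated at chromosome 17, 39843013 to 39846341, + strand (mm10). It was at 132, 142 and 140.4 CPM in WT and 26810, 26670 and 113 CPM in IRF5 KO, 2.57%, 2.56% and 0.0125% of the reads of the 3 knockout libraries. R3 was below every WT library, and the 3-library difference was 7.01 ± 1.22 (SE), adjusted p = 0.000285. It was at 22250 to 41930 CPM in WT and 11390 to 18570 CPM in IRF5 KO with defactinib and at 58 to 142 and 47 to 56.4 CPM at rest. Of 10 tested abundant nuclear noncoding RNAs 4 were higher, Gm26917, Kcnq1ot1, Rn7sk and Rpph1, and 1 lower (40% and 10%, against 11.8% and 14% of all genes). By single calls Gm26917, Kcnq1ot1, Rn7sk and Malat1 were higher in R1 and R2 only. Malat1 was at 176, 267 and 224 CPM in WT and 505, 525 and 118 CPM in IRF5 KO, with 0.78 (adjusted p = 0.125), and R3 was below every WT library. Without R3 it was called, at 1.21 (adjusted p = 0.00189 in edgeR). Neat1, the scaffold of paraspeckles, was lower in all 3, at 427, 649 and 319 and 117, 109.9 and 204 CPM, with -1.70 (adjusted p = 5.36e-05). The 13 mitochondrially encoded transcripts gave 0 calls with 3 libraries and 6 lower in R3 only (46.2%, against 0.658% of all genes), with a median of -0.92 in R3 and of -0.08 and -0.09 in R1 and R2. Their part in the other results of R3 was not tested.

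Of 18 tested in the list of nitric oxide, itaconate and prostaglandin enzymes of inflammatory macrophages 5 were lower (27.8%, against 14% of all genes) and 3 higher (16.7%, near the 11.8% of all genes). By single calls 4 were lower in R1 and R2 only (22.2%, against 9.79% of all genes). Nos2, the inducible nitric oxide synthase, was at 350.4, 386 and 280.5 CPM in WT and 0.242, 0.636 and 35 CPM in IRF5 KO. Both R1 and R2 were around the 0.393 to 0.623 CPM of unstimulated IRF5 KO and R3 well above it, with -4.81 ± 1.37 (SE), adjusted p = 0.00882 over 3 libraries. Acod1, which makes itaconate, was at 5214, 4576 and 4753 CPM in WT and 448, 456 and 2230 CPM in IRF5 KO, with -2.21 ± 0.58 (SE), adjusted p = 0.00567. Ch25h, which makes 25-hydroxycholesterol and is interferon-inducible, was at 120.0, 115 and 149.6 and 0.363, 0.398 and 18.7 CPM and was called in all 3, with -4.28 (adjusted p = 0.00251). Ptgs1, a cyclooxygenase, was higher in all 3.

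Antigen presentation and costimulation genes were lower in 9 of 23 (39.1%, against 14% of all genes) and higher in 0, and by single calls 6 were lower in all 3 libraries and 2 in R1 and R2 only, against 6.24% and 9.79% of all genes. Cd80, a ligand of CD28, was at 354, 398 and 348 CPM in WT and 144, 144 and 146 CPM in IRF5 KO. R3 was level with R1 and R2, and the difference was -1.34 ± 0.20 (SE), adjusted p = 7.52e-05. Cd86, its sister ligand, was at 355, 415 and 344 and 159.7, 161 and 213 CPM, with -1.06 (adjusted p = 0.00182). The transporter Tap1, the regulator Nlrc5 and the checkpoint ligand Cd274 were also lower in all 3. Of the MHC class II pathway, Cd74, the invariant chain, and H2-Aa were not called. Cd74 was at 11420, 14170 and 12930 CPM in WT and 16160, 16090 and 10090 CPM in IRF5 KO, with 0.14 (adjusted p = 0.521), and H2-Aa gave -0.06 (adjusted p = 0.799).

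Of 28 genes of the TLR4 pathway itself 3 were lower, Ly96, Ticam1 and Ripk2, and 1, Ptk2, was higher. These shares of 10.7% and 3.57% were below the 14% and 11.8% of all genes. By single calls 7, Tlr4, Cd14, Ly96, Tirap, Ticam1, Ticam2 and Tab1, were lower in R1 and R2 only (25%, against 9.79% of all genes). Cd14, the LPS coreceptor, was at 467, 372 and 326 CPM in WT and 191, 192 and 329 CPM in IRF5 KO, with R3 in the WT range and -0.71 (adjusted p = 0.0205) over 3 libraries, and was called without R3, at -1.02 (adjusted p = 0.000864 in edgeR). Ptk2b, which encodes PYK2, was at 162, 169 and 172 CPM in WT and 153, 151 and 170.0 CPM in IRF5 KO, with -0.08 (adjusted p = 0.417). Ptk2, which encodes FAK, was at 16.1, 15.3 and 18.9 and 43.3, 43.5 and 31.6 CPM and was higher in every knockout library, with 1.24 ± 0.15 (SE), adjusted p = 1.21e-05.

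Of 24 glycolysis and hypoxia genes 5 were lower and 2 higher (20.8% and 8.33%, near the 14% and 11.8% of all genes). Pfkp, the platelet phosphofructokinase, was at 1622, 1728 and 1682 CPM in WT and 739, 743 and 821 CPM in IRF5 KO and fell in all 3, with -1.13 (adjusted p = 5.93e-07). Of 23 cholesterol genes 6 were lower and 1 higher (26.1% and 4.35%, against 14% and 11.8%). Cell cycle genes were higher in 9 of 22 (40.9%, against 11.8% of all genes) and lower in 0. By single calls 5 were higher in all 3, 2 in R1 and R2 only and 3 in R3 only. The shares of all genes in these classes were 4.09%, 5.04% and 2.57%. The median was 1.09 in R3 and 0.76 and 0.78 in R1 and R2. Mcm3, of the replicative helicase, was at 52.8, 52.5 and 53.4 CPM in WT and 142, 142 and 76.1 CPM in IRF5 KO, with 1.18 (adjusted p = 0.000142), but Mki67, a marker of cycling cells, was not called, with -0.34 (adjusted p = 0.15). Pcna, the replication clamp, was lower in each knockout library, at 264, 254 and 282 CPM in WT and 130.2, 131 and 165 CPM in IRF5 KO, with -0.91 (adjusted p = 4.87e-05), short of the fold threshold.

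Fewer genes differed in R3 only. Of the 402 higher in R3 only, the largest differences at a mean log2 CPM of 3 or more were in Tifab, Relt, Gpr55, 6430548M08Rik and Cbfa2t3. Tifab, an inhibitor of TRAF signalling, was at 21.7, 18.9 and 18.4 CPM in WT and 21.7, 20.6 and 119 CPM in IRF5 KO, and Relt, a receptor of the TNF family, at 7.81, 8.34 and 7.19 and 8.24, 8.93 and 41.4 CPM. R1 and R2 were near the WT libraries in both, and both were high at rest, at 178 to 224 and 55.2 to 61.4 CPM in IRF5 KO and 178 to 200.1 and 49.8 to 55.2 CPM in WT. The calls of Tifab and Relt were lost without R3, at 0.10 and 0.14, and without each of 2 WT libraries. Cbfa2t3, a corepressor of the ETO family, was at 18.2, 21.8 and 16.6 and 33.2, 35.3 and 109.5 CPM and at 102 to 126 CPM in unstimulated IRF5 KO. The median of the class was 3.18 log2 CPM in R3, 1.74 to 1.80 in WT after LPS, 1.75 and 1.87 in R1 and R2 and 3.07 to 3.56 over the unstimulated libraries of both genotypes. Of the 103 lower in R3 only, Eid3, an inhibitor of differentiation, was at 15, 12.8 and 13.5 CPM in WT and 26.5, 28 and 4.32 CPM in IRF5 KO, with R1 and R2 above WT, and Hbegf, a growth factor, at 58.5, 34.8 and 45 and 33, 31.5 and 12.2 CPM. The 3-library difference was 0.51 (adjusted p = 0.348) for Eid3 and -0.85 (adjusted p = 0.0256) for Hbegf, neither of which was called, but Hbegf was without IRF5 KO R1 or R2, at -1.07 and -1.01 (adjusted p = 0.0158 and 0.0232 in edgeR).

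Genes near the Irf5 locus were counted separately. Of 59 tested genes within 5 Mb of Irf5, 6 were lower and 10 higher after LPS, 27.1% against 25.8% of all tested genes, and 3 and 3 at rest, 10.2% against 7.31%. Dock2 is a gene known to be altered in some IRF5-deficient colonies. It was at 448, 441 and 519 CPM in WT and 444, 455 and 292 CPM in IRF5 KO, with -0.24 (adjusted p = 0.195). In edgeR the difference was -0.44 (adjusted p = 0.0644) at rest and -0.57 (adjusted p = 0.00836) with defactinib. R3 differed from R1 and R2 by -0.62. As for Irf5, a whole-gene count does not reveal a change that leaves the transcript in place, so it does not check this gene.

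The genotype difference after LPS differed from that at rest, in the interaction test, for 1539 genes (9.83%), 992 lower (6.33%) and 547 higher (3.49%). Of the genes lower in all 3, 48.4% had a lower interaction and of those higher in all 3, 38.1% had a higher one, where the rule had already used the LPS libraries, so that these shares are a description. For Il12b the interaction was -2.77 (adjusted p = 0.00219), for Il1rn -1.35 (adjusted p = 0.000863) and for Irf2bp2 2.98 (adjusted p = 4.17e-06). For Ccl3 it was -0.00 (adjusted p = 1) and for F13a1 0.62 (adjusted p = 0.559), genes that were called at rest as well.

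Genes given beyond the rule for named genes were chosen after their values were seen. With full values these are Adgre1, Cd40, Cd80, Cd86, Csf2, Cxcl1, Cxcl10, Cxcl2, Fos, Gbp7, Hspa1a, Ifit1, Ifnb1, Irf1, Irf7, Irf9, Lif, Ltb, Mertk, Ptgs2, Socs3 and Stat2, together with the cell markers Ly6g, Elane and Cpa3.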

How the data were processed

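Raw counts per gene were deposited by the authors for 18 libraries. Reads had been aligned with STAR to mm10 and counted by the authors with featureCounts 1.6.3, paired and reverse-stranded. The annotation is not given in the sources used here, and 92.99% of genes have the coordinates of GENCODE M21. All 18 libraries were fitted with edgeR 4.0.16 (R 4.3.3; TMM, filterByExpr, robust quasi-likelihood F test, 1 mean per group, Benjamini-Hochberg adjustment over 15663 genes). Genes were called at an adjusted p below 0.05 and more than 2-fold apart. SE is the log2 difference over the root of F. Log2 CPM used a prior count of 2. Each IRF5 KO LPS library was also fitted alone, and R3 tested against R1 and R2. Depth was 39282181 to 61949143 counts. Alternatives were DESeq2 1.42.0, limma 3.58.1 (voom), other scalings, filters and thresholds, a replicate block and leaving out libraries.

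Named genes were those the study names for this experiment, the 3 most abundant of each list, and the 5 with the largest difference per class and direction at a mean log2 CPM of 3 or more. Some named genes are not reported here. The members and lists were chosen with earlier results of these data known. The tests were tried on simulated data. Column headers call the unstimulated libraries untreated where their titles say DMSO, and they are called unstimulated here.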

Additional observations from a re-analysis of the deposited data

Results flagged for a closer look

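Among the named genes reported here, 16 had a genotype difference after LPS that differed from the one at rest by edgeR's interaction test, given as the log2 difference of differences. The difference was lower after LPS for Il12b (-2.77, adjusted p = 0.00219), Nxf1 (-1.10, adjusted p = 0.0172), Il1rn (-1.35, adjusted p = 0.000863), Nr4a3 (-2.64, adjusted p = 0.00286), Ccr7 (-2.25, adjusted p = 0.027), Irf8 (-3.23, adjusted p = 0.0261), Cd14 (-1.47, adjusted p = 0.00846) and Trim30c (-4.08, adjusted p = 0.027). It was higher after LPS for Cbfa2t3 (1.67, adjusted p = 0.0207), Phlda1 (4.15, adjusted p = 0.00462), Asb2 (1.97, adjusted p = 0.0147), 6430548M08Rik (1.52, adjusted p = 0.0364), Egr1 (7.01, adjusted p = 0.00293), Irf2bp2 (2.98, adjusted p = 4.17e-06), Jun (3.02, adjusted p = 0.013) and Gm26917 (7.74, adjusted p = 0.0033). The part of IRF5 KO R3 in these interactions was not tested. After LPS, the calls of Cbfa2t3, 6430548M08Rik and Nxf1 were lost without R3, at 0.86, 0.88 and -0.82. That of Nxf1 was also lost without WT R2. Ccr7 lost its call without WT R2, IRF5 KO R1 or IRF5 KO R2, and Irf8 with any library left out except IRF5 KO R3. Only without R3 was Cd14 called, and the others kept their calls.

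In 5 further named genes the groups did not overlap at either time and lay in opposite directions at rest and after LPS. By the same edgeR interaction test these were Cybb (-0.97, adjusted p = 0.0275), Il6 (-4.63, adjusted p = 0.0822), Hdc (-3.20, adjusted p = 0.0728), Il27 (-4.89, adjusted p = 0.0989) and Irgm2 (-3.39, adjusted p = 0.17). Cybb missed the fold threshold, and the other 4 did not pass the adjusted p threshold. None of the 5 was called at rest. The resting differences were 0.40 for Cybb, 1.91 for Il6, 1.87 for Hdc, 0.61 for Il27 and 0.31 for Irgm2. Their adjusted p was 0.197 to 0.927 in edgeR, so that the direction at rest is uncertain.

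The genotype difference with DMSO before LPS and the one with defactinib before LPS had opposite directions, with no overlap of the groups, in 20 of the named genes reported here, and edgeR's test of the difference between them was chosen after the values were seen. It was lower with DMSO for Ccl3 (-3.43, adjusted p = 4.96e-06), Il12b (-6.84, adjusted p = 2.48e-07), Nxf1 (-1.78, adjusted p = 0.000204), Tab2 (-1.26, adjusted p = 4.27e-05), Ccl4 (-2.51, adjusted p = 2.31e-05), Irf4 (-3.91, adjusted p = 0.000183), Acod1 (-4.02, adjusted p = 0.00147), Hbegf (-2.28, adjusted p = 0.000655), Il6 (-6.76, adjusted p = 0.00118), Cflar (-1.61, adjusted p = 0.000796), Il1b (-3.88, adjusted p = 0.00518), Il1a (-4.92, adjusted p = 5.95e-05), Zbtb46 (-2.05, adjusted p = 1.51e-06), Nr4a3 (-3.28, adjusted p = 0.000148), Malt1 (-1.91, adjusted p = 0.000301), Slc25a37 (-2.46, adjusted p = 2.12e-05), Icam1 (-2.67, adjusted p = 6.09e-07) and Ccr7 (-4.20, adjusted p = 0.000195). It was higher with DMSO for Cbfa2t3 (2.12, adjusted p = 0.00204) and Hspa8 (1.03, adjusted p = 3.79e-05). These tests used IRF5 KO R1, R2 and R3 together, and the part of R3 in them was not tested. No search for outlying samples within a group was run for this section, since each group held 3 libraries.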

How the results depend on the processing

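No named gene that was called after LPS changed direction under any setting tried. Of those not called, 13 changed sign under at least 1 setting, 10 with library size alone, Irf5, Tnf and Klf6 among them, and 8 without IRF5 KO R3, with none called under the setting that turned it. Calls of named genes were lost for 26 with the threshold inside the test (glmTreat), 21 with the 6 libraries alone, 14 with no filter, 8 with library size alone, 5 each with DESeq2 and limma-voom, and 6 to 11 without 1 library. The count of 4036 called genes, 2195 lower and 1841 higher, became 2303, 1332 and 971 with a minimum of 5 CPM in 3 libraries, 8177, 3957 and 4220 with no fold threshold, and 1760, 1025 and 735 with glmTreat. With the 6 libraries alone 2733 were called, 1515 lower and 1218 higher. Leaving out 1 library gave 3395 to 5424 called, 1783 to 3260 lower and 1612 to 2164 higher, the highest without IRF5 KO R3. DESeq2 called 4022 (2215 lower, 1807 higher), limma-voom 3916 (2504 and 1412). Library size alone gave 1623 lower and 2637 higher of 4260, with the median of all genes at 0.30 in place of 0.05.

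Of the classes, library size alone gave 567 lower and 1087 higher in all 3 and 36 lower and 778 higher in R3 only. The minimum of 5 CPM gave 390 higher in R1 and R2 only and 48 lower in R3 only. With no fold threshold, 1946 were lower and 1556 higher in all 3, 1819 higher in R1 and R2 only and 348 lower in R3 only. By range without a test, 160 were lower in R3 only. Without 1 WT library, all 3 held 864 to 954 lower and 607 to 627 higher, R1 and R2 only 1493 to 1549 and 752 to 781, and R3 only 82 to 111 and 385 to 402. The cause of these shifts was not tested.

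Same-numbered libraries did not deviate together (median correlation 0.00455 over 45 pairs, 4 above 0.1), so the numbers do not pair them. With the replicate block 4072 genes were called, 2290 lower and 1782 higher. Depth was 39282181 counts or more per library, and a lone knockout library gives no spread of its own.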
